A study of Homo sapiens with 4 samples.

Results

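The hepatocyte identity transcription factors described here are 8 DNA-binding proteins that hold the liver gene programme in place: HNF4A, FOXA1, FOXA2, FOXA3, CEBPA, CEBPB, ONECUT1 and PROX1. They were chosen by name from 57979 genes in the expression table, and each was found in 1 row. Their mRNA was compared between 2 libraries of wild-type HepG2 cells (WT) and 2 libraries of HepG2 cells after CRISPR-Cas9 knockout of TXNDC9 (TXNDC9-KO, here KO). HepG2 is a human liver cancer cell line, grown here in DMEM with fetal bovine serum in both groups, and TXNDC9 is a thioredoxin domain protein that the study examined as a driver of liver cancer growth. The study named guide RNAs for the knockout, but the sources used here do not say which of them the sequenced cells carried, nor whether those cells were a clone or a pool. The labels do not say that the libraries came from separate cultures, so the p-values below measure the spread between these samples, which may be technical.

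Hepatocyte identity is held by a small circuit of factors that bind each other's genes and the same enhancers. FOXA1, FOXA2 and FOXA3 are forkhead proteins known as pioneer factors, because they bind DNA in closed chromatin and make it accessible. HNF4A is a nuclear receptor that is active without an added ligand and stands at the centre of the circuit, CEBPA and CEBPB are leucine zipper proteins that switch on metabolic and acute-phase genes, and ONECUT1 (also called HNF6) and PROX1 are homeodomain proteins needed when the liver bud forms. CEBPA is known as a brake on hepatocyte division, while CEBPB rises in regeneration and inflammation.

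The measured quantity was FPKM, in which the fragments of a gene are divided by the length of its transcript and by the size of the library, as the authors deposited it. No read counts were used, so the depth behind each value is unknown. The values summed to 805816 and 971102 in the WT libraries and to 535973 and 568280 in the KO libraries. Genes with an average above 1 FPKM (13246 genes) were compared on the log2(FPKM + 0.1) scale with limma, where a pseudocount of 0.1 understates the change of low genes, with calls made at an adjusted p under 0.01 and at least 2-fold. Higher calls made up 14.2% of the tested genes and lower calls 15.3%, the median log2 fold change being -0.09. Rescaling each library to the same total (TPM) moved that median to 0.59 and the share of called genes that were higher from 48.3% to 90.7% (33.1% of tested genes called higher and 3.37% lower), whereas centring on the median gave 35.8%. TXNDC9 itself stood at 35.1 and 37.3 FPKM in the WT libraries and at 21.9 and 27.6 in the KO libraries, a log2 fold change of -0.55 (SE 0.14, limma adjusted p = 0.0145) that was not called and was 0.12 after rescaling to TPM (adjusted p = 0.449). A Cas9 cut can leave the transcript in place, so this level does not show whether the protein was lost. The gene EIF5B overlaps TXNDC9 on the other strand, with 56.6 and 83.6 FPKM in the WT libraries and 32.8 and 35.4 in the KO libraries. The sources used here do not say whether strand was used in counting.

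The labelled cell type was not borne out by most of the hepatocyte markers listed here. Of the 10 hepatocyte markers, 8 were below 1 FPKM in each of the 4 libraries, and these 8 summed to only 0.315 and 0.852 FPKM in the WT libraries and to 0.150 and 0.0820 in the KO libraries. ALB, which encodes albumin and is abundantly made by hepatocytes, was listed at 0.0260 and 0 in the WT libraries and at 0 in both KO libraries. APOA1, the main protein of high-density lipoprotein, was listed at 0 in all 4 libraries, and the largest value among the 8 was 0.568 for ASGR1, the asialoglycoprotein receptor. The urea cycle gene CPS1, outside this list, was high, at 162.4 and 147.5 FPKM in the WT libraries and at 244.7 and 256.0 in the KO libraries.

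The other 2 hepatocyte markers, the keratins KRT8 and KRT18, are shared with most simple epithelia. KRT8 stood at 4303 and 5444 FPKM in the WT libraries and at 1408 and 1418 in the KO libraries, and KRT18 at 2782 and 3709 against 927 and 976. Both were called lower, with log2 fold changes of -1.78 (adjusted p = 0.00121) and -1.76 (adjusted p = 0.0012), the second of which was -0.91 and under 2-fold after a correction for transcript length and GC content. Processed pseudogenes of both exist, among which the authors' counting could have split reads.

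Markers of the fetal liver cell and of the bile duct were low as well, with 1 exception among 9. AFP, the fetal counterpart of albumin, was at 0.262 and 0.449 FPKM in the WT libraries and at 0 and 0.0996 in the KO libraries. DLK1, GPC3 and EPCAM were listed at 0 throughout, and KRT19 did not exceed 0.312. KRT7, a keratin of ducts, was the exception, at 2294 and 4071 FPKM against 526 and 559, a log2 fold change of -2.49 (adjusted p = 0.00109) called lower. With KRT7, the 9 markers summed to 2295 and 4072 in the WT libraries and to 527 and 560 in the KO libraries.

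**Figure D1:**
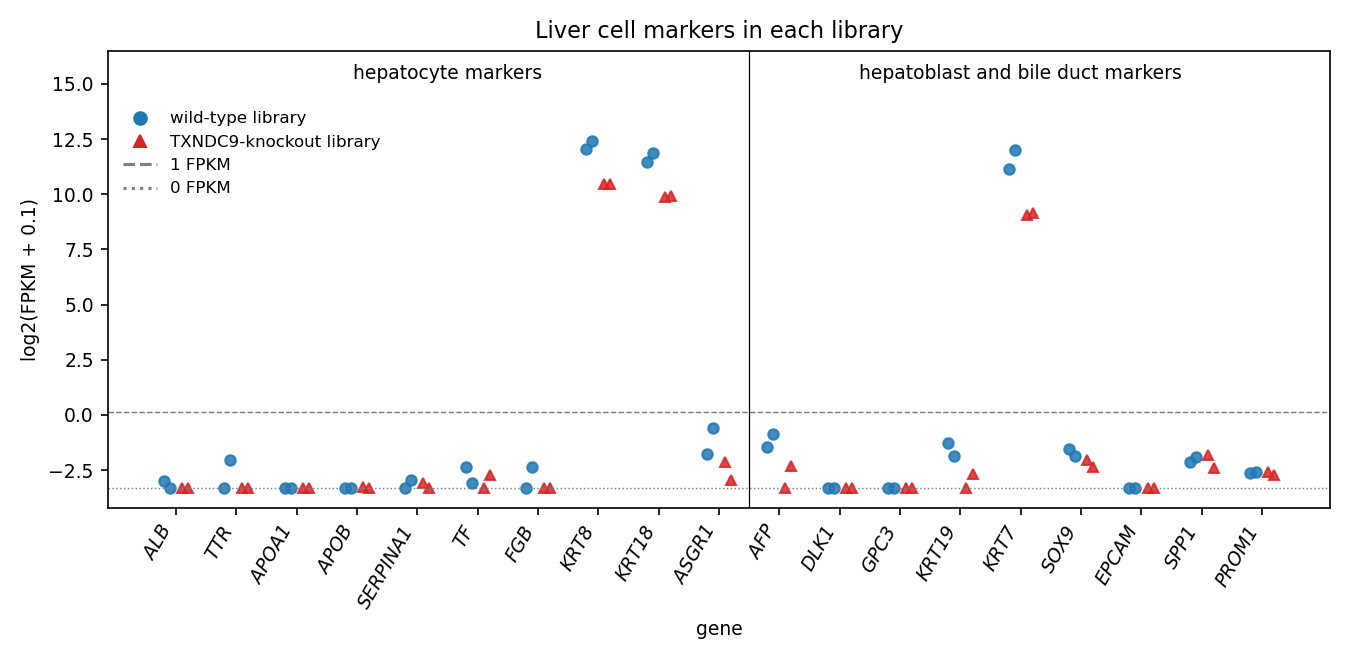
FPKM of hepatocyte markers (left) and of hepatoblast and bile duct markers (right) on the log2(FPKM + 0.1) scale, 1 point per library, circles for wild type and triangles for TXNDC9 knockout. The dashed line is 1 FPKM and the dotted line 0 FPKM. Only KRT8, KRT18 and KRT7 lie above 1 FPKM, and for each of them the KO libraries lie below the WT libraries.

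A mesenchymal list had more members above the filter, 9 of 13. Of these 9, 1 was called lower and 2 higher, against 15.3% and 14.2% of all tested genes. VIM, the intermediate filament vimentin, stood at 774 and 908 FPKM against 364 and 379 and was the 1 member called lower (log2 fold change -1.17, adjusted p = 0.00139, but -0.79 after that correction and -0.49 after rescaling to TPM), while ZEB1 (1.40, adjusted p = 0.00115, but 0.52 after that correction) and PDGFRB (1.55, adjusted p = 0.00392) were called higher. The 13 summed to 853 and 978 in the WT libraries and to 431 and 442 in the KO libraries, with COL1A2 at 0 in all 4. Of 8 blood and endothelial markers, CD3E and HBB were among those listed at 0 throughout. The endothelial cadherin CDH5 was called higher (0.751 and 1.07 FPKM against 4.26 and 3.14, log2 fold change 1.92, adjusted p = 0.00195), and that list summed to 4.23 and 6.55 FPKM against 10.5 and 10.7. The part of these markers in the results below was not tested.

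A value of 0 in this table is not proof of absence. A check list of 20 housekeeping genes had no value under 7.86 FPKM (TBP in a knockout library). Of these 20, 18 had a negative log2 fold change, with a median of -0.61, and 6 were called lower and 0 higher, GAPDH at -1.20 and ACTB at -1.28 among them. Over all tested genes, 7067 of 13246 had a negative log2 fold change, 15.3% were called lower and 14.2% higher. The housekeeping calls were made at the deposited scaling. Rescaling to TPM moved the median of all tested genes from -0.09 to 0.59. By contrast the 13 protein genes of the mitochondrial genome, which every such cell transcribes, were listed at 0 in all 4 libraries. Of all genes, 54.4% were listed at 0 throughout. Members at 0 are therefore described as listed at 0. Because 8 of the 10 hepatocyte markers were at or near 0 in all 4 libraries alike, no library could be left out on this ground. In these bulk samples, fewer cells of a type and less RNA per cell cannot be told apart.

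Of the 8 identity factors, 3 passed the filter and 5 lay far under 1 FPKM in every library. CEBPB had the highest level, followed by CEBPA and FOXA1. The 5 others reached at most 0.208 FPKM. Of the 3 that were tested, 1 was called higher (FOXA1) and none lower at the thresholds above, 14.2% and 15.3% of all tested genes being called in these directions. In the WT libraries the values of CEBPA and FOXA1 overlapped, so their order was not resolved, and CEBPB lay above both. In the KO libraries the order was CEBPB, FOXA1 and CEBPA, with no overlap between neighbours.

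**Figure D2:**
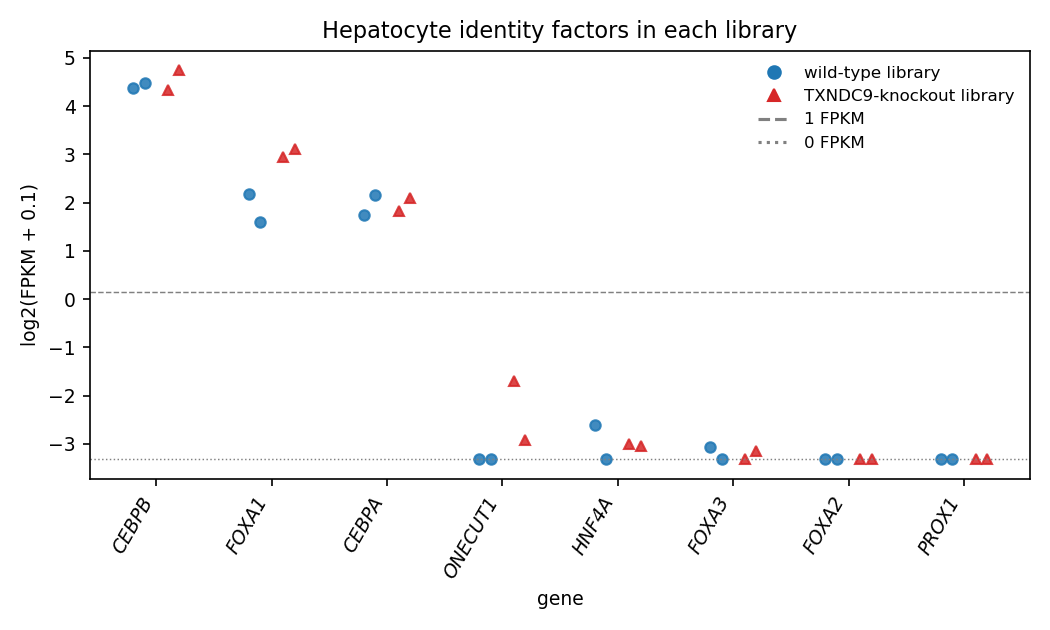
The 8 identity factors on the log2(FPKM + 0.1) scale, 1 point per library, circles for wild type and triangles for TXNDC9 knockout, with 1 FPKM dashed and 0 FPKM dotted. CEBPB, FOXA1 and CEBPA lie above 1 FPKM in all 4 libraries, the other 5 lie at or near 0, and only for FOXA1 among the 3 expressed factors do the KO libraries lie apart from the WT libraries.

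FOXA1 is a pioneer factor of liver, breast, prostate and other endoderm-derived or hormone-responsive tissues. Its gene (ENSG00000129514) has 2 exons on the minus strand of chromosome 14 (hg38, 37589552 to 37596059). FOXA1 stood at 4.45 and 2.92 FPKM in the WT libraries and at 7.61 and 8.53 in the KO libraries, or 3.68 ± 1.08 and 8.07 ± 0.652 (SD, n = 2 each). Both KO values were above both WT values, a separation that 40.1% of all tested genes showed in this direction and 45.9% in the opposite one. The log2 fold change was 1.14 (SE 0.22, 95% interval 0.60 to 1.68, limma adjusted p = 0.00527), or 2.20-fold, and 12.8% of the tested genes had a larger one. An exact permutation test of 2 against 2 libraries cannot go below p = 0.33, so the call rests on the variance that limma shares between genes.

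The FOXA1 call stood close to the 2-fold line. The correction of each library for the length and GC content of transcripts gave a log2 fold change of 1.01 with an adjusted p of 0.0123, which no longer passed, and leaving out WT replicate 2, the lowest library, gave 0.84. Leaving out either KO library ended the FOXA1 call as well (1.22, adjusted p = 0.0505, and 1.06, adjusted p = 0.0662), and with it every call in the table. Relative to the median of all tested genes the change was 1.23 both as reported and after rescaling to TPM. Rescaling shifts all genes of a library nearly alike, so this match is no check of the call. The gene TTC6 overlaps FOXA1 on the other strand, with 0.351 and 0.740 FPKM in the WT libraries and 0.707 and 1.15 in the KO libraries, and the sources used here do not say whether strand was used in counting.

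FOXA2 and FOXA3, the other liver pioneer factors, gave almost no signal. FOXA2 (chromosome 20, 22580998 to 22585455, minus strand) was listed at 0 in all 4 libraries. FOXA3 (chromosome 19, 45863989 to 45873797, plus strand) was listed at 0.0199 and 0 in the WT libraries and at 0 and 0.0129 in the KO libraries. FOXA1 thus made up 99.6% to 100% of the summed FPKM of the 3 FOXA genes in each library, WT and KO alike.

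CEBPB is the C/EBP factor of acute-phase and stress responses. The gene (ENSG00000172216) is a single exon on chromosome 20 from 50190830 to 50192668, on the plus strand. CEBPB stood at 20.5 and 22.3 FPKM in the WT libraries and at 19.9 and 26.7 in the KO libraries, or 21.4 ± 1.26 and 23.3 ± 4.75 (SD, n = 2 each), so the KO values lay on either side of the WT range. The log2 fold change of 0.11 (SE 0.16, 95% interval -0.29 to 0.50, adjusted p = 0.573) did not pass the test, and a change of 2-fold lay outside its interval at this scaling. Rescaled to TPM it was 0.79 (adjusted p = 0.00336), under 2-fold, where the median of all tested genes was 0.59.

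CEBPA, which restrains division and supports metabolic genes in the mature hepatocyte, had a lower level. Its gene (ENSG00000245848) is a single exon on chromosome 19 from 33299934 to 33302534, on the minus strand. CEBPA stood at 3.24 and 4.38 FPKM in the WT libraries and at 3.42 and 4.15 in the KO libraries, or 3.81 ± 0.807 and 3.78 ± 0.515 (SD, n = 2 each), and the KO values lay within the WT range. The log2 fold change was below 0.01 in size (SE 0.20, 95% interval -0.50 to 0.50, adjusted p = 0.999). ENSG00000267727 overlaps CEBPA on the other strand and was at 1.69 and 1.80 FPKM against 5.85 and 4.46.

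For both C/EBP genes the outcome depended on that same correction. Their transcripts are short (1839 bases for CEBPB and 2601 for CEBPA) and rich in G and C (66.2% and 65.9%), against 3509 bases and 50.4% for FOXA1. After the correction the log2 fold change of CEBPB was 1.09 (adjusted p = 0.00503), which was called higher, and that of CEBPA was 0.80 (adjusted p = 0.0242), which was not. In that fit 6.3% of the tested genes were called higher and 7.5% lower, and 7.04% had a larger log2 fold change than CEBPB.

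**Figure D3:**
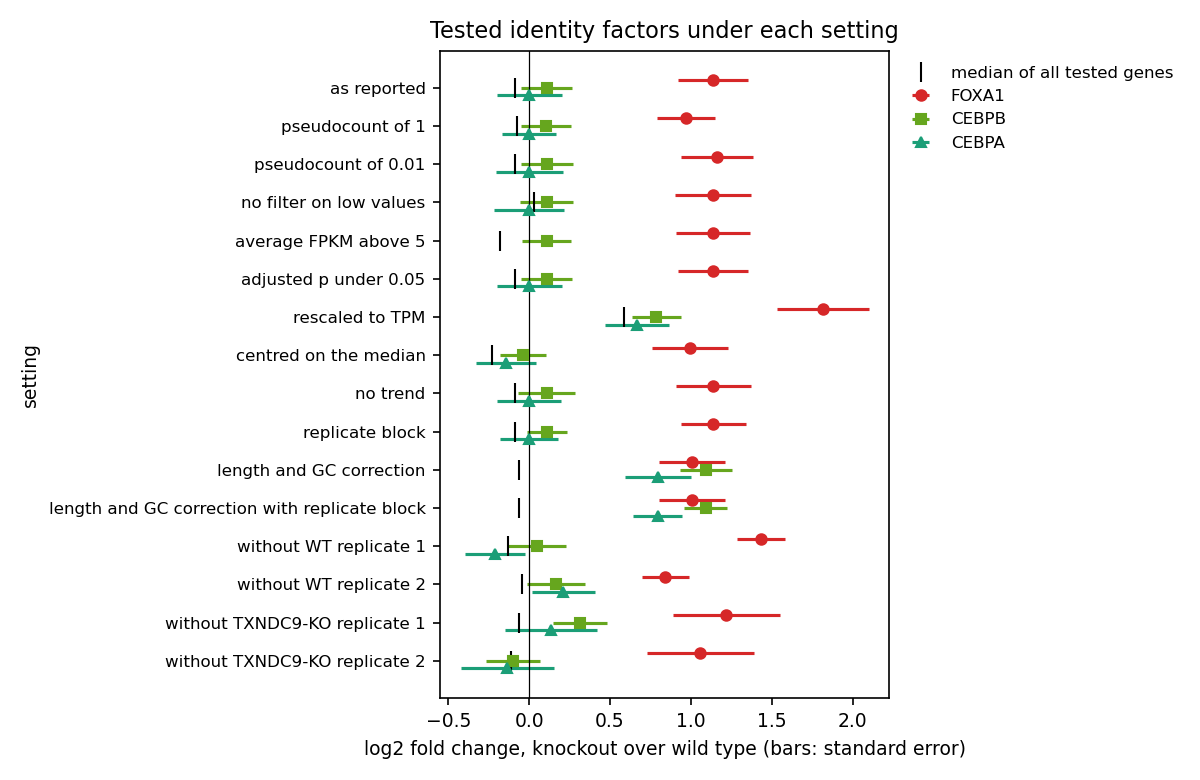
Log2 fold change of FOXA1 (circles), CEBPB (squares) and CEBPA (triangles), knockout over wild type, under each way of processing the table, with standard errors as bars and the median of all tested genes as a black tick. FOXA1 stays between 0.84 and 1.82, while CEBPB and CEBPA lie between -0.21 and 0.32 except after rescaling to TPM and after the length and GC correction, and CEBPA has no value with the filter at an average above 5 FPKM.

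HNF4A, the central receptor of the circuit, gave almost no signal. Its gene (ENSG00000101076) spans chromosome 20 from 44355699 to 44432845 on the plus strand. HNF4A was listed at 0.0628 and 0 FPKM in the WT libraries and at 0.0243 and 0.0209 in the KO libraries, and its antisense transcript HNF4A-AS1 at 0 in all 4. The KO values lay within the WT range. Its relative HNF4G did not exceed 0.0474 FPKM in any library, so neither HNF4 gene had an appreciable level.

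ONECUT1 and PROX1 were likewise at the floor. ONECUT1 (chromosome 15, 52755053 to 52791078, minus strand) was listed at 0 in both WT libraries and at 0.208 and 0.0329 in the KO libraries. These values lay above those of the wild type but far below the filter, and 1 library held most of the signal. PROX1 (chromosome 1, 213983181 to 214041510, plus strand) was listed at 0 in all 4 libraries, as was PROX1-AS1, and PROX2 reached only 0.0619.

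The start regions of the genes were read for short motifs. RefSeq promoters of build GRCh38.p14, running from 250 bases before to 50 after the start, were at hand for 6 of the 8 factors, and FOXA2 and PROX1 had none. Each was searched on both strands for 6 motifs, with the share of 35116 human promoters that held each as background. The 3 windows of 30 bases below contain TATAAA, the core of the TATA box, in capitals, and are shown because CEBPA and CEBPB, which had measurable mRNA, share it with FOXA3, which did not.
CEBPA (19:33302547-33302576, minus strand): cggcctgccgggTATAAAagctgggccggc
CEBPB (20:50190789-50190818, plus strand): acgggccgccctTATAAAtaaccgggctca
FOXA3 (19:45864284-45864313, plus strand): gggtgtcccggcTATAAAgcgtggccgcct

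The motif began 30 bases before the start in CEBPA and FOXA3 and 29 bases before it in CEBPB, and 11.5% of the background promoters held it. These starts are those of the RefSeq promoters. For FOXA1, FOXA3, ONECUT1 and the second HNF4A start they lie inside the gene span given above and not at its edge. CEBPB has another listed start, which lies before its span. HNF4A has 2 listed starts, and near each lay ATTGAT, the core letters bound by ONECUT proteins, which 6.26% of promoters held. In the first it reads on the opposite strand. ONECUT1 held the E-box CACGTG, the letters read by MYC and related proteins, which 7.26% of promoters held. The capitals mark these motifs.
HNF4A, first start (20:44355654-44355683, plus strand): gtgattagaagaATCAATaagataaccggg
HNF4A, second start (20:44401027-44401056, plus strand): ctgccttgtacaATTGATaactgaacatcg
ONECUT1 (15:52790528-52790557, minus strand): gccaatctttcgCACGTGcccgcagctccc

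No window of the 6 factors held the forkhead letters TGTTTAC (3.42% of promoters), the HNF4 letters CAAAGTCCA (0.384%) or the C/EBP palindrome TTGCGCAA (0.151%), which says only that these letters are not in these windows. The factors above and below the filter overlapped in their number of CG dinucleotides. The background promoters had a median of 14, CEBPA had 50, FOXA1 34 and the 2 starts of CEBPB 31 and 43, but FOXA3 with 37 and ONECUT1 with 39 were as rich. HNF4A was the poorest, with 11 and 9 at its 2 starts.

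Genes of the same families carried much of the family mRNA. Of 8 relatives, 4 passed the filter, of which 1 was called higher and 1 lower, against 14.2% and 15.3% of all tested genes, and the median of their log2 fold changes was -0.70. ONECUT2, which overlaps ONECUT1 in liver and bile duct formation, stood at 4.18 and 4.02 FPKM in the WT libraries and at 9.98 and 10.8 in the KO libraries. It was called higher with a log2 fold change of 1.32 (SE 0.12, adjusted p = 0.000599), which the length and GC correction reduced to 0.38 (adjusted p = 0.0341). ONECUT2 made up 98.0% to 100% of the summed ONECUT family in each library, and ONECUT3 was listed at 0. The within-library ratio of ONECUT2 to FOXA1 was 0.939 and 1.38 in the WT libraries and 1.31 and 1.26 in the KO libraries, so the groups overlapped.

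In the C/EBP family the makeup differed between the groups. DDIT3, also called CHOP, the partner induced by endoplasmic reticulum stress, stood at 20.9 and 32.7 FPKM in the WT libraries and at 10.7 and 11.8 in the KO libraries. It was called lower with a log2 fold change of -1.21 (SE 0.22, adjusted p = 0.00423), which was -0.64 after the length and GC correction (adjusted p = 0.0311), -0.53 after rescaling to TPM (adjusted p = 0.0208) and -0.89 without WT replicate 2. CEBPD, an acute-phase relative, stood at 38.2 and 38.8 against 16.9 and 22.7, a log2 fold change of -0.97 (adjusted p = 0.00298) just under 2-fold. CEBPG, which has no activation domain of its own, stood at 11.5 and 12.6 against 8.39 and 9.36 (-0.44, adjusted p = 0.0184), and CEBPE did not exceed 0.554.

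The 6 C/EBP genes together summed to 94.4 and 111 FPKM in the WT libraries and to 59.9 and 75.0 in the KO libraries. The FPKM of all genes also summed lower in the KO libraries, to 535973 and 568280 against 805816 and 971102 in the WT libraries. Whether the family fell apart from this scaling was not tested. CEBPB made up 21.8% and 20.1% of that sum in the WT libraries and 33.3% and 35.5% in the KO libraries. CEBPD took 40.4% and 35.0% against 28.2% and 30.3%, and CEBPA 3.43% and 3.95% against 5.71% and 5.53%. Within a library, where the scaling cancels, the ratio of CEBPD to CEBPB was 1.86 and 1.74 in the WT libraries and 0.848 and 0.853 in the KO libraries. CEBPD thus exceeded CEBPB in both WT libraries and fell short of it in both KO libraries. The ratio of CEBPB to CEBPA was 6.34 and 5.10 against 5.83 and 6.43, so these groups overlapped. The ratio of FOXA1 to CEBPB, 0.217 and 0.131 in the WT libraries, was 0.382 and 0.320 in the KO libraries, with no overlap. The length and GC correction does not cancel in such a ratio, and after it the log2 fold changes of FOXA1 (1.01) and CEBPB (1.09) were close. With 2 libraries in each group, none of these ratios can reach a p below 0.33 in an exact permutation test. Separation of the groups was common among single genes, both KO values lying above both WT values in 40.1% of all tested genes and below them in 45.9%. The share of gene ratios that separate was not computed.

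**Figure D4:**
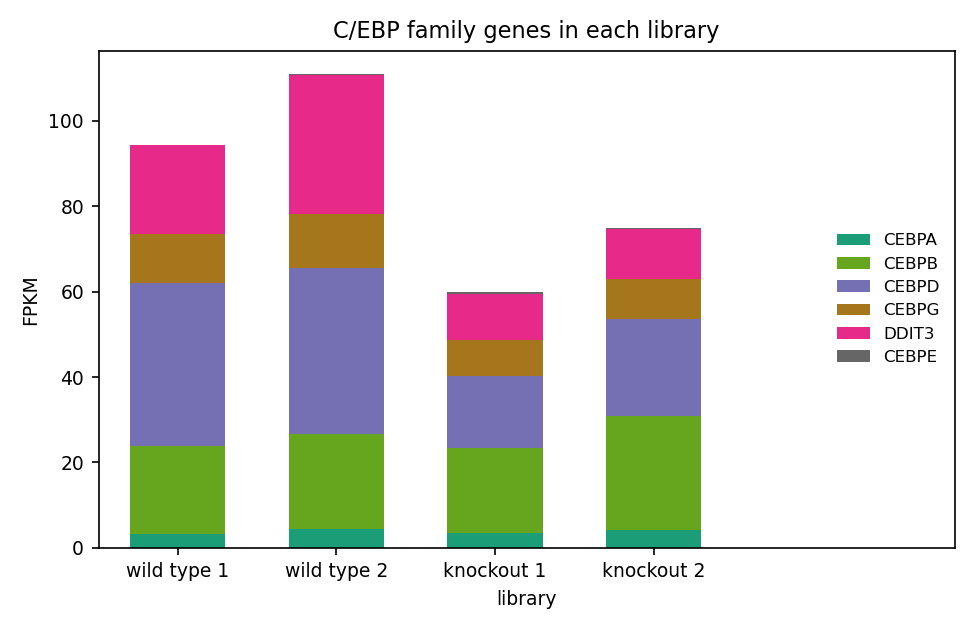
Stacked FPKM of the 6 C/EBP genes in each library, starting at 0. The stacks reach 94.4 and 111 in the WT libraries and 59.9 and 75.0 in the KO libraries, the CEBPD and DDIT3 segments are shorter in the KO libraries, and the CEBPB and CEBPA segments overlap in height between the groups. Values are at the deposited scaling, at which the FPKM of all genes also summed lower in the KO libraries.

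Of 19 other transcription factors of the liver, 12 passed the filter, 2 were called higher and none lower, the median log2 fold change being -0.08. Over all tested genes 14.2% were called higher and 15.3% lower, so 2 of 12 is near the background. PPARA, the receptor that turns on fatty acid oxidation, stood at 2.03 and 2.05 FPKM in the WT libraries and at 5.38 and 5.51 in the KO libraries (log2 fold change 1.37, adjusted p = 0.00081). NR3C1, the glucocorticoid receptor, stood at 8.92 and 8.65 against 21.4 and 21.3 (1.27, adjusted p = 0.000538). Neither passed after the length and GC correction, at 0.57 (adjusted p = 0.016) and 0.35 (adjusted p = 0.0251). The 10 others ran from -1.23 for NR1I3, the constitutive androstane receptor (adjusted p = 0.0161), to 0.83 for GATA6, a zinc finger factor of early endoderm (adjusted p = 0.00726).

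Several of the other liver factors were at the floor too. The repressor NR0B2 and the zinc finger factor GATA4 were listed at 0 in all 4 libraries. NR5A2, NR1H4 (the bile acid receptor) and NR1I2 (the pregnane X receptor) did not exceed 0.0754 FPKM. NR1H3 (the liver X receptor), NR2F6, RXRA, HHEX and TBX3 lay above 6 FPKM in every library.

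Most of the coregulators listed here are proteins through which these factors act on chromatin. The list also holds TRIB1 and COP1, which act on the C/EBPα protein itself. All 13 passed the filter, 8 were called higher and none lower, the median log2 fold change being 1.08, against 14.2% higher and 15.3% lower over all tested genes. In 10 of the 13 both KO values lay above both WT values, against 40.1% of all tested genes. The list was chosen with earlier results of these data known, so these contrasts with all tested genes are not independent of the data. NCOA2, a coactivator of nuclear receptors, stood at 0.873 and 1.02 FPKM in the WT libraries and at 4.92 and 5.56 in the KO libraries, the largest rise of the list (log2 fold change 2.35, SE 0.20, adjusted p = 0.000562). EP300, a histone acetyltransferase, stood at 2.87 and 2.12 against 10.9 and 12.4 (2.19, SE 0.18, adjusted p = 0.00055), and NCOA3, a coactivator related to NCOA2, at 5.62 and 4.78 against 21.3 and 21.8 (2.04, SE 0.12, adjusted p = 0.000493).

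The 5 other calls were PPARGC1A, CREBBP, NCOA1, MED1 and TRIB1, with log2 fold changes of 1.07 to 1.82. The corepressor NCOR1 had a log2 fold change of 0.98 (adjusted p = 0.000892), just under 2-fold. TRIB1 and COP1 together mark C/EBPα protein for destruction. TRIB1 averaged 2.10 ± 0.139 FPKM in the WT libraries and 4.50 ± 0.0159 in the KO libraries (SD, n = 2 each), and COP1 at 22.3 and 28.8 against 20.6 and 19.4, with a log2 fold change of -0.34 (adjusted p = 0.0828). After the length and GC correction 5 of the 13 were called higher, against 6.3% of all tested genes in that fit, namely EP300 at 1.53, NCOA2 at 1.39, CREBBP at 1.18, NCOA3 at 1.09 and TRIB1 at 1.02, and PPARGC1A, NCOA1 and MED1 were not.

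**Figure D5:**
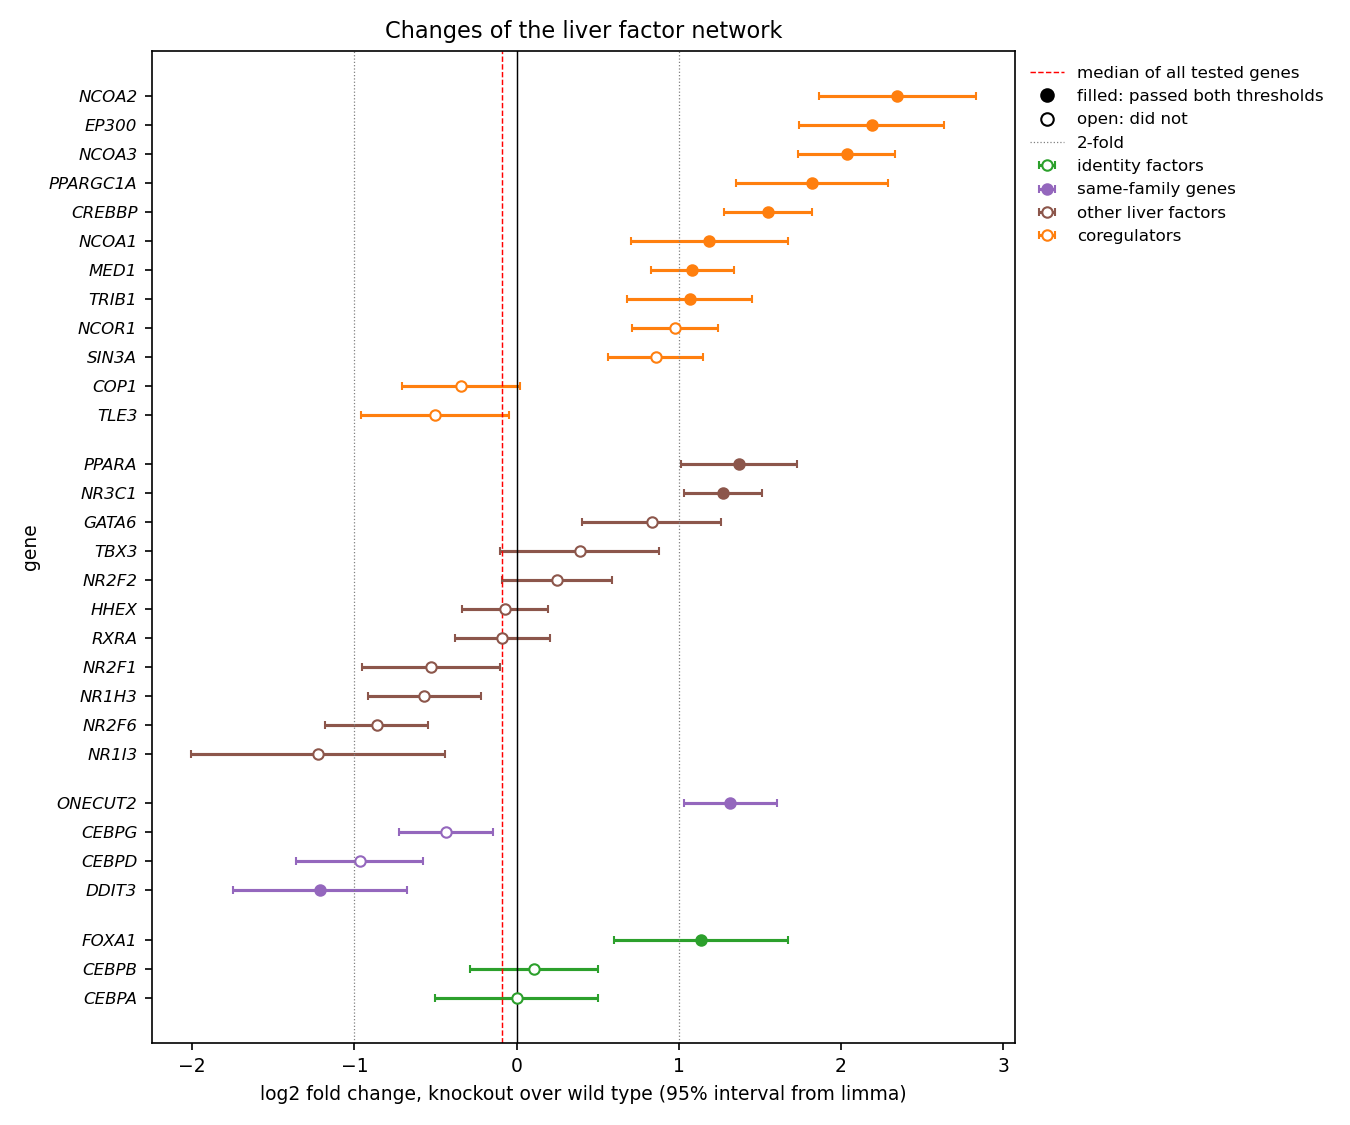
Log2 fold change, knockout over wild type, of tested identity factors, same-family genes, other liver factors and coregulators, with the 95% interval from limma. Filled points passed both thresholds, dotted lines mark 2-fold and the red dashed line the median of all tested genes at -0.09. The 8 filled coregulators lie between 1.07 and 2.35, and FOXA1 is the 1 filled identity factor.

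Target genes of the circuit were almost all at or near 0 in this table. Of 20 genes known as HNF4A targets, 19 did not pass the filter, 8 were listed at 0 in all 4 libraries, and the largest value among the 19 was 0.213 FPKM, for PCK1, which makes phosphoenolpyruvate in gluconeogenesis. The 1 that passed was F12, coagulation factor XII, at 6.78 and 6.70 FPKM in the WT libraries and at 2.91 and 1.90 in the KO libraries. F12 was called lower (log2 fold change -1.48, SE 0.22, adjusted p = 0.00217), and was at -0.57 after the length and GC correction (adjusted p = 0.0839) and at -0.82 after rescaling to TPM (adjusted p = 0.03).

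None of 9 FOXA targets passed the filter, although FOXA1 did. The highest of them was IGFBP1, an insulin-responsive binding protein, at 0.704 and 0.825 FPKM in the WT libraries and at 0.683 and 0.571 in the KO libraries, where FOXA1 was higher. LINC00261, a noncoding RNA beside FOXA2, was listed at 0 throughout.

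Of 11 C/EBP targets, 2 passed the filter. SAA1, an acute-phase protein whose reads can be shared with the near-identical SAA2, stood at 2.08 and 3.99 FPKM against 0.137 and 0.408 and was called lower (log2 fold change -3.10, SE 0.53, adjusted p = 0.00367). CPS1, the first enzyme of the urea cycle, stood at 162 and 147 FPKM against 245 and 256, which was not called because its log2 fold change of 0.69 (SE 0.12, adjusted p = 0.0037) was under 2-fold. CPS1 was thus the 1 gene among all the listed targets with a level above 10 FPKM. CRP, ORM1 and G6PC were listed at 0 in all 4 libraries, and PCK1, again, reached 0.213.

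The named antisense transcripts of the identity factors did not reach the filter. CEBPB-AS1, which overlaps CEBPB on the other strand, was at 0.547 and 0.657 FPKM in the WT libraries and at 0.278 and 0.250 in the KO libraries, while CEBPB itself overlapped between the groups. CEBPA-AS1 was listed at 0.147 and 0 in the WT libraries and at 0 and 0.0233 in the KO libraries.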

How the data were processed

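Polyadenylated RNA of 4 HepG2 libraries (2 WT, 2 TXNDC9-KO) was sequenced on an Illumina instrument. Per the labels and the study's methods, TopHat2 placed the reads on hg38, and Cuffdiff of the Cufflinks suite produced the FPKM values that the authors deposited. How libraries were normalized, whether strand was used and which versions were run are not given in the sources used here. The authors' averages, fold changes, p-values and q-values were not used. The table held 57979 genes with values, and its identifiers were out of register with its symbols. After they were put back in order, 98.8% of 35363 comparable rows carried the symbol of GENCODE release 44.

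Genes with an average FPKM above 1 were fitted with limma 3.58.1 (R 4.3.3) after a log2(FPKM + 0.1) transform (trend in the prior variance, Benjamini-Hochberg adjustment over 13246 genes), on all 4 libraries without a replicate block. Transcript length and GC content, for 13112 of these genes, came from GENCODE, and the correction subtracted a loess curve on both from each library. Alternatives are given in the closing section. The steps were tested on simulated data. The identity factors, gene lists and markers were chosen with earlier results of these data known, and the housekeeping and mitochondrial lists after values were seen. In each other list the called genes were named, or the largest 3 rises and 3 falls where more than 6 were called. Any other gene was named after its values were seen. Some members of these lists are counted in the totals but are not reported here by name. Tables and figures were made with matplotlib 3.10.9, pandas 2.3.3, scipy 1.17.1 and numpy 2.4.6 under Python 3.11.15.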

Additional observations from a re-analysis of the deposited data

How the results depend on the processing

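The count of identity factors called higher, 1 as reported, was 0 with a pseudocount of 1, with no filter on low values, after centring on the median and without the trend, and ran from 0 to 1 when single libraries were left out. It was 1 after the length and GC correction, but the gene was then CEBPB and not FOXA1. The count called lower was 0 in every setting run. The log2 fold change of FOXA1 was 0.97 with a pseudocount of 1 (adjusted p = 0.00482), 1.14 with no filter (adjusted p = 0.0261) and without the trend (adjusted p = 0.0125), 0.996 centred (adjusted p = 0.0125), 1.01 after the length and GC correction (adjusted p = 0.0123) and 1.01 with the replicate block added to it (adjusted p = 0.0178). Leaving out a library moved it between 0.84 and 1.44, with adjusted p of 0.0505 and 0.0662 without knockout replicate 1 or 2. Without either knockout library every call in the table was lost, and the cause of this was not tested. A lone library has no spread of its own, so each such fit took the spread from the pair in the other group. CEBPA changed sign with a pseudocount of 0.01 (4.36e-05), rescaled to TPM (0.67), after the length and GC correction (0.80) and with the replicate block added to it (0.80), and ran from -0.21 to 0.21 with single libraries left out. CEBPB was -0.036 centred, 0.79 rescaled to TPM (adjusted p = 0.00336), 1.09 after the length and GC correction, 1.09 with the replicate block added (adjusted p = 0.00532) and -0.10 to 0.32 with single libraries left out. TXNDC9 was 0.12 rescaled to TPM. The cause was not tested. Higher and lower calls over all genes were 1885 and 2021 as reported, 4380 and 447 rescaled to TPM, 826 and 983 after the length and GC correction, and 730 and 983 with the block added, which left 4 and not 5 coregulators called higher. The deviations of same-numbered libraries from their group means had a correlation of -0.09 over 13246 genes. With 2 libraries in each group, this cannot show whether the replicate numbers pair the libraries. The replicate block alone left FOXA1 at 1.14 (adjusted p = 0.000866), with 1960 higher and 2146 lower calls. A filter at an average above 5 FPKM left CEBPA untested. Of 305 alternative fits of the 21 other called genes named, housekeeping genes left out, 220 kept the call, 85 lost it and 0 changed sign. These counts do not measure stability. The looser threshold of an adjusted p under 0.05 could not lose a call, and the fits without a knockout library lost every call. FPKM values without counts give no depth, so the floor of the low factors is unknown.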

Other observations

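Some genes beside the identity factors at or near 0 were measurable. Of the 16 nearest protein-coding neighbours of the 8 factors, 11 had an average above 1 FPKM, and 6 of the 10 beside the 5 factors near 0 did. The share of all protein-coding genes above 1 FPKM was not computed. The distances to these neighbours ran from 0.795 kb to 862.5 kb. FOXA3 lay 0.795 kb from SYMPK, a scaffold of mRNA 3′ end processing, which stood at 52.9 and 70.5 FPKM in the WT libraries and at 24.1 and 26.0 in the KO libraries. TTPAL beside HNF4A stood at 2.40 and 2.57 against 5.15 and 5.13, and SMYD2 beside PROX1 at 37.8 and 37.6 against 27.7 and 29.3. By contrast PAX1 and SSTR4, on either side of FOXA2, were listed at 0 in all 4 libraries. The neighbours of FOXA1 were measurable on both sides, with MIPOL1 at 3.996 and 2.474 against 5.38 and 4.99 and SSTR1 at 2.40 and 1.51 against 5.11 and 4.78.

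The tested genes whose profile over the 4 libraries was most like that of FOXA1, by Euclidean distance between log2(FPKM + 0.1) profiles centred on their means, were TTF2 (distance 0.0756) and IGF2R (0.0777), and 79 genes lay within 0.2. For CEBPA they were NRP1 (0.0398) and AC093642.5 (0.0524), with 169 genes within 0.2, and for CEBPB SH2D5 (0.0341) and ZNF77 (0.0508), with 115. The profiles of the other 5 factors are set largely by the pseudocount. Of these, 4 lay nearest to flat genes, PYGO2 and IL17RA for FOXA2 and PROX1, CROCCP2 and CTD-2517M22.14 for HNF4A, and CYB5RL and TAF1C for FOXA3. ONECUT1 had no gene within 0.2, the nearest being ZNF571 (0.274) and CTD-2555K7.2 (0.289), with log2 fold changes of 0.996 and 0.84.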
